A study of Mus musculus with 12 samples.

Results

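DHT-treated and placebo-treated female mice were compared in both the ovaries and the gonadal fat pads, and the question here was which genes responded to DHT differently in one tissue than in the other. For every gene, the difference of the effects was the change under DHT in gonadal fat minus the change under DHT in the ovaries. The genes were all those with a symbol of their own whose value exceeded the array median in 3 or more of the 6 arrays of each tissue, which left 18080 of 30176 genes. All animals were C57BL/6J females of 25 days at the start. The treated mice carried under the skin a silicone capsule with 5 mg of DHT powder, the placebo-treated mice an empty one, and tissues were taken about 60 days later. Each of the 4 groups (ovaries and gonadal fat, with and without DHT) held 3 arrays, and every RNA came from a whole organ or fat pad, so in all that follows fewer cells of a type and less RNA per cell cannot be told apart. The labels call the samples biological replicates but do not say which ovaries and fat pads came from 1 mouse.

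DHT (dihydrotestosterone) is the strongest natural ligand of the androgen receptor, a transcription factor that binds DNA once it holds its hormone. Aromatase cannot turn DHT into an estrogen, so its actions are taken to run mainly through that receptor. Long exposure of young female rodents to DHT is a common model of the androgen excess of polycystic ovary syndrome: such females stop ovulating, and their ovaries hold few corpora lutea, the progesterone-making bodies that form after ovulation. Adipose tissue carries androgen receptors too, and the gonadal pad lies next to the ovary and oviduct.

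Values are log2 expression as deposited, and a difference of 1 is a 2-fold change. The array medians ranged from 4.35 to 4.43 for ovaries and from 3.30 to 3.52 for fat. Levels were therefore compared between tissues only for the markers of tissue identity below, and otherwise changes within a tissue were compared. In the deposited table the gonadal fat values of 26501 of 65929 transcript clusters (40.2%) stood beside the wrong names. They were moved back before any comparison, which took the correlation of the ovary and fat means over these clusters from 0.0139 to 0.946, against 0.943 over the clusters that were in place. Tissue identity was borne out by markers: the mean of 4 adipocyte markers lay at 10.4 to 10.9 in the fat arrays and at 5.64 to 7.58 in the ovary arrays, and the mean of 10 oocyte markers lay at 6.75 to 7.43 in the ovaries and at 2.89 to 3.13 in fat.

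Several arrays stood apart. The mean of 7 oviduct markers was 7.27 in DHT-treated ovary 3 and 7.65 in placebo-treated ovary 2, against 4.43 to 5.57 in the other 4 ovary arrays. In gonadal fat, 7 skeletal muscle markers averaged 7.26 in placebo-treated fat 3 and 4.74 to 5.30 in the other 5 arrays, and 7 smooth muscle markers averaged 9.46 in placebo-treated fat 1 and 6.89 to 8.10 in the DHT-treated arrays. Other markers were apart between the treatments. In the ovaries the 4 adipocyte markers averaged 6.52, 5.64 and 5.91 with DHT and 7.58, 6.80 and 6.62 without, and the 7 corpus luteum markers averaged 7.47, 7.88 and 7.78 with DHT and 9.29, 10.4 and 10.7 without. Both sets of ovary arrays were apart (exact two-sided permutation test, p = 0.1, the smallest that 3 against 3 allow).

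**Figure D1:**
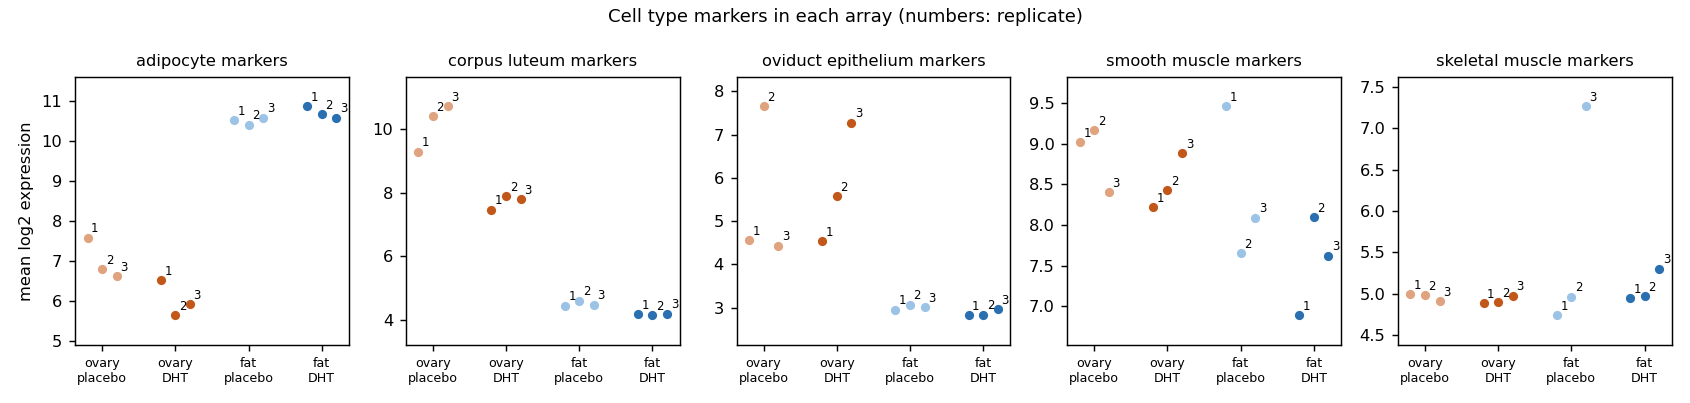
Mean log2 expression of cell type markers in each of the 12 arrays, with the replicate number beside each point and the groups along the horizontal axis. Adipocyte and corpus luteum markers were lower in all 3 DHT-treated ovaries than in all 3 placebo-treated ovaries, and oviduct markers were high in DHT-treated ovary 3 (7.27) and placebo-treated ovary 2 (7.65).

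The effect of DHT differed between the tissues in 1110 of 18080 genes (6.14%) by limma at an adjusted p of at most 0.10. The study used the same false discovery rate within each tissue, by SAM, but also required a 2-fold change and a p of at most 0.05. In 837 genes (4.63%) the change was higher in fat than in the ovaries, and in 273 (1.51%) it was lower, so 75.4% of the called differences were higher in fat. Centring each array on its median moved the median difference over all genes from 0.01 to 0.13, and then 1338 were higher and 157 lower, or 89.5% higher. The estimated changes ran in opposite directions in 951 of the 1110 genes and in 1 direction in 159. Only 26 of the 951 were called in both tissues, and choosing genes by a large difference favours opposite signs. Estimates were also opposite among many of the 15723 genes with no call: ovary up and fat down in 4746, the reverse in 4376. Within a tissue, 354 genes (1.96%) were called in the ovaries, 151 (0.835%) higher and 203 (1.12%) lower, and 1895 genes (10.5%) in gonadal fat, 1370 (7.58%) higher and 525 (2.9%) lower. With a 2-fold change also required, 82 were called in the ovaries and 105 in fat. The fit shares 1 variance per gene between the tissues, and the median residual SD was 0.093 in the ovaries and 0.136 in fat. With array weights that let each tissue have its own variance the counts were 772 in the ovaries and 946 in fat, and the difference was then called in 1088 genes. Separate fits of each tissue gave 225 in the ovaries and 728 in fat. With ovary and fat arrays of the same number treated as 1 mouse, as a random block, the difference was called in 2237 genes. The count of 1110 was 327 without the 2 ovary arrays high in oviduct markers and 457 with the ovarian adipocyte marker level as a covariate. That level was itself lower in all 3 DHT-treated ovaries. A call kept or lost with the covariate therefore cannot tell adipocyte content from an effect of DHT. The count of differences was 688, 573 and 668 without ovary DHT 1, 2 or 3, and 549 and 524 without ovary control 2 or 3. It was 601 and 2037 without fat DHT 2 or 3, and 646 without fat control 3. The ovary calls numbered 171 and 203 without ovary DHT 2 or 3 and 213 and 204 without ovary control 2 or 3, and the fat calls 1063 and 951 without fat DHT 1 or 2 and 1133 and 1086 without fat control 2 or 3. Next to the threshold, Ndufb9 was called (adjusted p = 0.0997) and Pnp was not (adjusted p = 0.10004).

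The genes called in both tissues fell into 2 small groups. In 26 genes (0.144% of those tested) the effects were called in both tissues, in opposite directions. They were 7.34% of the genes called in the ovaries and 1.37% of those called in fat, and in 19 of them the ovary value fell and the fat value rose. In 40 genes (0.221%) the effects were called in both tissues in 1 direction, 33 higher and 7 lower, which was 11.3% of the ovary calls and 2.11% of the fat calls. A further 173 genes were called in the ovaries with a difference between the tissues but not called in fat. Called in fat with a difference, but not called in the ovaries, were 735 genes (1126 with the assumed mouse as a random block). The difference was called in 174 genes that passed in neither tissue. For 115 genes called in the ovaries alone and 1094 called in fat alone the difference was not called, so those are not shown to differ between tissues by this fit. With the assumed mouse as a random block the difference was called in 58 of the 115 and in 425 of the 1094.

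**Figure D2:**
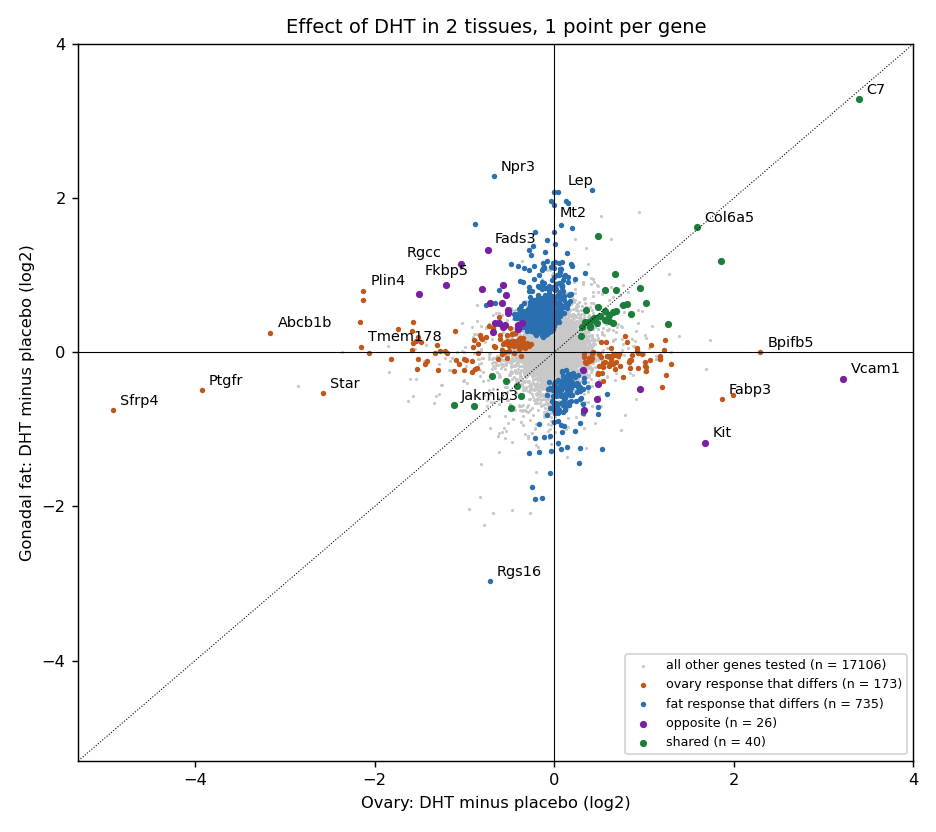
Effect of DHT in the ovaries (horizontal axis) and in gonadal fat (vertical axis), as the difference of log2 group means, 1 point for each of 18080 genes. Colours mark the 26 opposite responses, the 40 shared responses and the genes that responded in 1 tissue with a called difference, and the dotted line marks equal effects. C7 and Col6a5 lie on the line, while Vcam1 and Kit lie far below it.

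Among the opposite responses, Vcam1 and Kit rose in the ovaries and fell in gonadal fat. Vcam1 encodes an adhesion molecule that binds leukocyte integrins. In the ovaries Vcam1 stood at 9.57, 9.84 and 9.48 with DHT and at 6.38, 6.37 and 6.48 with placebo. In gonadal fat it stood at 5.31, 5.35 and 5.19 with DHT and at 5.70, 5.75 and 5.43 with placebo. The groups did not overlap in either tissue, but the ovary change was 9.32-fold and the fat change 1.27-fold. On the log2 scale DHT changed Vcam1 by 3.22 ± 0.11 (SE) in the ovaries (limma, adjusted p = 3.91e-08) and by -0.34 ± 0.11 in fat (adjusted p = 0.0871). Their difference was -3.56 (95% interval -3.90 to -3.23, adjusted p = 6.55e-07). Endothelial markers were measured beside it: the mean of 8 lay at 7.35 to 7.50 in DHT-treated and at 7.23 to 7.50 in placebo-treated ovaries.

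Kit encodes the receptor of stem cell factor, which in the ovary is found on oocytes and on theca and interstitial cells, and elsewhere on mast cells. The ovary values of Kit were 9.02, 8.88 and 8.87 with DHT and 6.92, 7.38 and 7.41 with placebo. Those in gonadal fat were 5.60, 5.34 and 5.33 with DHT and 6.67, 6.47 and 6.64 with placebo. All 3 DHT-treated ovaries were above, and all 3 DHT-treated fat pads below, their placebo-treated counterparts. Kit rose 3.21-fold in the ovaries and fell 2.25-fold in fat, with a difference on the log2 scale of -2.85 ± 0.18 (SE, adjusted p = 2.58e-05). Of 5 other mast cell markers tested, limma called none in either tissue (unadjusted p under 0.05 in 2 in the ovaries and 0 in fat). For Cpa3, a protease of mast cell granules, the estimates were -0.87 in the ovaries and 0.16 in fat. The mean of the 10 oocyte markers was 6.75 to 7.43 in DHT-treated and 6.76 to 7.02 in placebo-treated ovaries. In the ovaries 5 theca markers averaged 9.0, 8.87 and 8.82 with DHT and 7.97, 8.06 and 8.99 without, groups that overlapped, and the part of theca cells in the rise of Kit was not tested.

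Genes that fell in the ovaries and rose in fat included a steroid hormone target and genes of lipid handling. Fkbp5 encodes a co-chaperone of steroid receptors, and its gene is a standard target of androgen and glucocorticoid receptors. In the ovaries Fkbp5 stood at 7.83, 7.53 and 7.49 with DHT and at 8.65, 8.74 and 9.06 with placebo. In gonadal fat it stood at 7.63, 7.56 and 7.02 with DHT and at 6.53, 6.38 and 6.70 with placebo. No array of a treated group overlapped with its control group. The log2 change was -1.20 ± 0.17 in the ovaries (adjusted p = 0.00382) and 0.87 ± 0.17 in fat (adjusted p = 0.0117), and the difference was 2.07 (95% interval 1.55 to 2.58, adjusted p = 0.00138). Rgcc, a regulator of the cell cycle, followed the same course. The ovary values of Rgcc were 7.41, 7.16 and 7.50 with DHT and 8.12, 8.31 and 8.75 with placebo. Those in gonadal fat were 9.78, 9.75 and 9.64 with DHT and 8.43, 8.76 and 8.55 with placebo. The groups were again apart in both tissues, with changes of -1.04 and 1.14 and a difference of 2.18 ± 0.21 (SE, adjusted p = 8.27e-04).

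Fads3, a member of the fatty acid desaturase family, lay at 9.67, 9.91 and 10.08 in DHT-treated fat and at 8.46, 8.51 and 8.71 in placebo-treated fat. In the ovaries it lay at 6.93, 7.12 and 7.49 with DHT and at 7.65, 8.11 and 7.99 without. The fat groups were over 1 unit apart on average and the ovary groups less than that, without overlap, and the difference was 2.06 ± 0.23 (SE, adjusted p = 0.00121). Lipe encodes hormone-sensitive lipase, which releases fatty acids from stored fat. Its fat values were 9.78, 9.75 and 9.77 with DHT and 9.38, 9.41 and 9.38 without, and its ovary values were 6.68, 6.60 and 6.57 with DHT and 7.01, 6.88 and 7.01 without. These were small changes with a tight spread: Lipe rose by 0.38 in fat (adjusted p = 0.00591) and changed by -0.35 in the ovaries (adjusted p = 0.0184). Pde3b, the phosphodiesterase through which insulin restrains lipolysis, changed by -0.72 in the ovaries and 0.63 in fat, and its difference was 1.35 ± 0.19 (SE, adjusted p = 0.00379).

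Cobll1, a relative of the actin-binding protein Cobl, had a difference of 1.44 ± 0.14 (SE, adjusted p = 8.27e-04). It lay at 7.15, 7.45 and 7.14 with DHT and 7.80, 7.69 and 7.95 without in the ovaries, and at 6.91, 6.81 and 6.78 with DHT and 6.04, 5.87 and 5.98 without in fat. The mitochondrial carrier gene Slc25a30 had the largest ovary fall of the group, -1.50, with 0.76 in fat. The remaining 12 genes that fell in the ovaries and rose in fat were Plcb4, Usp53, Epb41l1, Pde1a, Asah2, Gamt, Chst11, Abhd2, Trappc1, Slc46a3, Cd151 and Tmem141. Among these 12, ovary changes ran from -0.80 to -0.40 and fat changes from 0.27 to 0.83, and in Chst11 and Trappc1 the fat arrays overlapped. The 5 other genes that rose in the ovaries and fell in fat were Coq8a, an atypical kinase needed for coenzyme Q synthesis (0.47 and -0.61), the co-repressor gene Runx1t1 (0.33 and -0.75), Gm5859, Kcnab1 and Lrp4. In 24 of the 26 genes the arrays of both tissues were apart in opposite directions, which held for 587 of all 18080 genes (3.25%). The 26 were chosen by calls on these same values, so arrays that are apart add no support. Taken 1 tissue at a time, ovary arrays were apart with DHT higher in 6.79% and lower in 13.5% of all genes, and fat arrays with DHT higher in 15.1% and lower in 8.37%. The difference kept its sign and its call in all 26 genes when any 1 array was left out, and also with the level of adipocyte markers in the ovary arrays as a covariate. Called in both tissues in opposite directions were 15 genes without fat DHT 2 or without fat control 3, 17 without ovary DHT 1 or without ovary control 3, and 11 without the 2 ovary arrays high in oviduct markers.

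**Figure D3:**
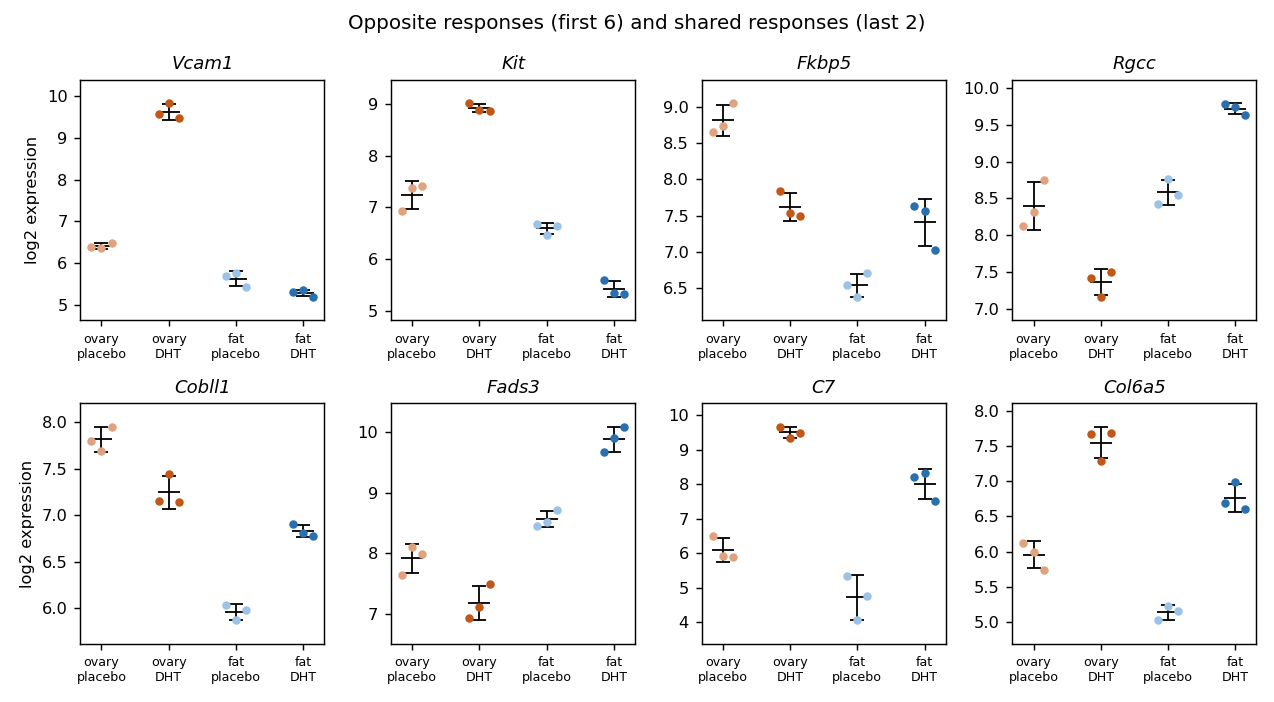
Log2 expression of 8 genes in each of the 12 arrays (points), with the mean and SD of each group of 3 (bars). Vcam1 and Kit rose in the ovaries and fell in gonadal fat, the next 4 genes fell in the ovaries and rose in fat, and C7 and Col6a5 rose in both.

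Responses shared by both tissues were led by C7 and Col6a5. C7 is a component of the membrane attack complex of complement. In the ovaries C7 stood at 9.66, 9.34 and 9.50 with DHT and at 6.51, 5.92 and 5.89 with placebo. In gonadal fat it stood at 8.20, 8.32 and 7.52 with DHT and at 5.35, 4.05 and 4.78 with placebo. Treated and control arrays were over 1 unit apart in both tissues. C7 rose 10.5-fold in the ovaries and 9.76-fold in fat (adjusted p = 1.64e-04 and 1.31e-04), and the difference of -0.11 had a 95% interval of -1.03 to 0.81 on the log2 scale. None of the other 11 complement genes tested was called by limma in either tissue (unadjusted p under 0.05 in 1 in the ovaries and 3 in fat). Col6a5 encodes a chain of collagen VI, a microfibril collagen of the pericellular matrix. The ovary values of Col6a5 were 7.67, 7.29 and 7.69 with DHT and 6.12, 6.0 and 5.74 with placebo. Those in gonadal fat were 6.69, 6.99 and 6.61 with DHT and 5.02, 5.23 and 5.16 with placebo. The arrays were apart in both tissues by similar distances. Col6a5 rose by 1.59 ± 0.14 (SE) in the ovaries and by 1.62 ± 0.14 in fat, with adjusted p values of 1.62e-04 and 1.05e-04, and the difference was 0.03 (95% interval -0.40 to 0.45). The other collagen VI chains did not follow: Col6a1, Col6a2 and Col6a3 were called in neither tissue, and Col6a6 rose in fat by 0.40 with an estimate of -0.13 in the ovaries and a called difference of 0.54 (adjusted p = 0.034).

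Among the other shared genes, Adhfe1, a mitochondrial hydroxyacid transhydrogenase, lay at 7.55, 7.87 and 7.76 with DHT and 6.81, 6.80 and 6.69 without in the ovaries, and at 9.43, 9.08 and 8.93 and 8.39, 8.21 and 8.32 in fat. It rose by 0.96 in the ovaries and 0.84 in fat, without overlap. Dhtkd1, Aldh6a1 and Bckdhb, which act in the breakdown of lysine, valine and branched-chain amino acids, rose by 0.57, 0.49 and 0.30 in the ovaries and by 0.54, 0.59 and 0.21 in fat. Aldh2, Dpyd and Gstm2 rose in both tissues as well, by 0.42 to 0.61 in the ovaries and 0.41 to 0.48 in fat. Prrg3, a vitamin K-dependent membrane protein gene, rose by 0.68 and 1.01, and Strip2 by 0.69 and 0.81. Zbtb16, a transcription factor gene that androgens and glucocorticoids induce, rose by 0.57 in the ovaries (adjusted p = 0.0728) and by 0.42 in fat (adjusted p = 0.0902). Mertk, a receptor for the uptake of dying cells, rose by 0.86 and 0.50.

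The 7 genes that fell in both tissues were Jakmip3, Kcnk3, Bst2, Pfkp, Lhfp, Sh3bgr and Pgbd5. Jakmip3 lay at 5.01, 5.07 and 5.03 with DHT and 5.94, 6.24 and 6.29 without in the ovaries, and at 4.10, 4.06 and 4.32 and 4.82, 4.89 and 4.84 in fat. Its groups were apart in both tissues, with changes of -1.12 and -0.69. The potassium channel gene Kcnk3 changed by -0.89 and -0.70, and Pfkp, the platelet form of the glycolytic enzyme phosphofructokinase, by -0.37 and -0.57. Over the 40 shared genes the arrays of both tissues were apart in every gene, against 374 of all 18080 genes (2.07%) with such arrays in 1 direction. The 40 were chosen by calls on these same values, so arrays that are apart add no support. One of the 40, Serpina3e-ps, lay below the array median in all 3 placebo-treated ovaries and passed the ovary filter through the DHT-treated ones. Its ovary change of 0.56 was 0.36 with values below the median set to it. The difference was called in 2 of the 40: Tmeff1 rose more in fat (0.49 in the ovaries, 1.51 in fat) and Eya1 more in the ovaries (1.27 and 0.36). In 36 of the 40 the 95% interval of the difference lay within 1 on the log2 scale, and in 20 within 0.5. The count of shared genes was 13 with the ovarian adipocyte marker level as a covariate and 18 without the 2 ovary arrays high in oviduct markers. It was 19 without fat DHT 2, 22 without ovary DHT 2, 25 without ovary DHT 3 or without ovary control 3, and 26 without ovary control 2 or without fat control 3.

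Because the androgen receptor binds DNA through repeats of a 6-base half-site, promoters of the genes called in both tissues were read for TGTTCT or its reverse complement AGAACA. The windows ran from 250 bases before to 50 after the first start of each gene (RefSeq, GRCm38.p6) and were available for 11412 of the 18080 genes, 19 of the 26 opposite and 28 of the 40 shared genes. At least 1 half-site was present in 1453 of the 11412 windows (12.7%), in 2 of 19 opposite genes (10.5%) and in 5 of 28 shared genes (17.9%), which are shares near that of all genes. The windows of C7, Col6a5, Kit, Fkbp5 and Rgcc held none. One stretch from each of the 7 genes with a half-site is shown in capitals within 15 bases on either side where the window allowed, opposite genes first, read along the strand of the gene.
Asah2 chr19:32103274-32103309 (-): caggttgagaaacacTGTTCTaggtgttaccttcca
Coq8a chr1:180196206-180196241 (-): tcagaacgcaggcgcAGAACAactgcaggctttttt
Aldh6a1 chr12:84451003-84451038 (-): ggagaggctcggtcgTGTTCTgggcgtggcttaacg
Bckdhb chr9:83924887-83924919 (+): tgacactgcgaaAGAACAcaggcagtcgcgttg
E030003E18Rik chr19:20492647-20492682 (+): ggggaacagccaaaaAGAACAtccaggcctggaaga
Serpina3i chr12:104262943-104262978 (+): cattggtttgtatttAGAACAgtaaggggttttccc
Zfp185 chrX:72987323-72987358 (+): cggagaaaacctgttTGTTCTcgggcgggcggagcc

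The ovary response that differed from fat comprised 173 genes, 101 lower and 72 higher in the DHT-treated ovaries. Without single ovary arrays it held as few as 88 (DHT 2), 107 (control 2 or control 3) or 111 (DHT 3), and without fat DHT 2 it held 113. Sfrp4 and Ptgfr fell furthest. Sfrp4, a secreted inhibitor of Wnt signalling, lay at 5.01, 6.30 and 5.37 in DHT-treated ovaries and at 9.54, 10.71 and 11.19 in placebo-treated ovaries. In fat it lay at 4.64, 4.27 and 4.50 and 5.89, 4.73 and 5.05. The ovary groups were over 3 units apart at their nearest arrays, and the estimates were -4.92 ± 0.42 (SE, adjusted p = 1.62e-04) in the ovaries and -0.75 ± 0.42 in fat (adjusted p = 0.327), a difference of 4.17 (adjusted p = 0.00468). Ptgfr encodes the receptor of prostaglandin F2-alpha, the signal for luteal regression. It lay at 4.43, 5.23 and 5.69 with DHT and 7.65, 9.23 and 10.25 without in the ovaries, and at 3.66, 3.34 and 3.61 and 4.15, 4.0 and 3.92 in fat. All treated ovaries were lower, though both groups spread over more than 1 unit, and the difference was 3.44 ± 0.71 (SE, adjusted p = 0.0275). The DHT-treated fat values lay near the medians of those arrays, so low signal limits how large a fall could be seen in fat.

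Star, which moves cholesterol to the first enzyme of steroid synthesis, fell by 2.57 in the ovaries (adjusted p = 6.38e-04) against an estimate of -0.53 in fat (adjusted p = 0.276). Its ovary values were 7.37, 8.47 and 7.74 with DHT and 9.91, 10.49 and 10.90 without, so the groups did not overlap. Scarb1, the receptor that takes up cholesterol from HDL, and Fdx1, the electron donor of mitochondrial steroid enzymes, fell in the ovaries by 1.51 and 1.20, with estimates of -0.09 and 0.00 in fat. Their differences were called on all arrays (adjusted p = 0.0636 and 0.0927) but not without some single arrays, where the adjusted p reached 0.13 without ovary DHT 3 for Scarb1 and 0.195 without ovary control 3 for Fdx1. The 7 corpus luteum markers, which include Star, Ptgfr and Scarb1, had a mean in the ovaries of 7.71 with DHT and 10.1 without, and the part of luteal tissue in these falls was not tested. In fat that mean was 4.14 to 4.20 with DHT and 4.45 to 4.60 without, and 3 of the 7 markers (Cyp11a1, Akr1c18 and Hsd3b1) lay below the array median in all fat arrays.

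Plin4, Scd1, Ephx2 and Gm2a also fell in the ovaries. Plin4, a coat protein of lipid droplets, lay at 6.58, 6.22 and 6.41 with DHT and 7.48, 8.56 and 9.55 without in the ovaries, and at 10.65, 10.92 and 10.84 and 9.95, 10.02 and 10.03 in fat. The arrays were apart in both tissues in opposite directions, but the fat change of 0.80 was not called (adjusted p = 0.219), and the difference was 2.93 ± 0.51 (SE, adjusted p = 0.0119). Scd1, the desaturase that makes monounsaturated fatty acids, fell by 1.57 in the ovaries with an estimate of 0.12 in fat and a difference of 1.69 ± 0.27 (SE, adjusted p = 0.00739). Ephx2, soluble epoxide hydrolase, and Gm2a, the activator of ganglioside breakdown, fell in the ovaries by 1.57 and 1.31. With the ovarian adipocyte marker level as a covariate the differences of Plin4, Scd1, Ephx2 and Gm2a were still called (adjusted p = 0.0149, 0.0926, 0.0349 and 0.0064). That of Retn, which encodes resistin, was not (adjusted p = 0.293, against 0.0531 without the covariate), but Retn is itself 1 of the 4 markers. The marker level was lower in all 3 DHT-treated ovaries, so neither result tells adipocyte content from an effect of DHT.

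Other falls of the ovary included the drug efflux pump Abcb1b, the matrix protein tenascin C (Tnc), Tmem178, Mgst2 and Timp1, an inhibitor of matrix proteases. Abcb1b lay at 6.19, 6.27 and 6.37 with DHT and at 10.13, 9.11 and 9.08 without. The ovary groups were over 2 units apart, whereas the estimate in fat was 0.25 (adjusted p = 0.546) and the difference 3.41 ± 0.31 (SE, adjusted p = 7.79e-04). Tmem178 lay at 6.10, 6.24 and 6.03 with DHT and at 8.55, 8.08 and 8.19 without, and its difference of 2.22 had an adjusted p of 8.27e-05. Tnc, Mgst2 and Timp1 had estimates of -2.17, -1.30 and -1.01 in the ovaries and, in fat, of 0.39, -0.24 and -0.09.

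Genes that rose in the ovaries with a called difference included Bpifb5, Fabp3, Omd, Ptgr1, Cxcl1 and Vwf. Bpifb5, of the BPI fold family, lay at 9.08, 8.80 and 8.87 with DHT and at 6.42, 6.37 and 7.09 without, and at 4.33, 4.41 and 4.50 and 4.27, 4.59 and 4.38 in fat. The fat arrays overlapped and the ovary arrays did not, and the difference was -2.29 ± 0.24 (SE, adjusted p = 9.43e-04). Fabp3, a cytosolic fatty acid-binding protein, rose by 1.87 in the ovaries with an estimate of -0.61 in fat. Its pseudogene Fabp3-ps1 had estimates of 2.0 and -0.56. In fat Fabp3 lay at 4.37, 4.57 and 4.63 with DHT and at 4.53, 4.85 and 6.03 without, groups that overlapped. Both Fabp3 and Fabp3-ps1 (6.025) were highest in placebo-treated fat 3, where skeletal muscle markers averaged 7.26. The part of muscle in the fat estimates was not tested. Probes of Fabp3 and of its pseudogene can share sequence, so their signals cannot be told apart. Ptgr1, which reduces prostaglandin and leukotriene derivatives, rose by 1.18 in the ovaries (fat -0.08), the chemokine gene Cxcl1 by 0.84 (fat -0.10) and the von Willebrand factor gene Vwf by 0.49 (fat -0.28). Ccn2, a matrix-associated growth regulator, Col4a3 and the proteoglycan gene Omd rose by 1.02, 0.40 and 1.30, and their differences were not called without some single arrays (adjusted p up to 0.162 without fat DHT 1, 0.145 without ovary control 2 or fat DHT 2, and 0.116 without ovary control 2). The covariate ended the call in Ccn2, Col4a3, Omd, Cxcl1 and Fabp3 (adjusted p = 0.281, 0.162, 0.248, 0.184 and 0.102).

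**Figure D4:**
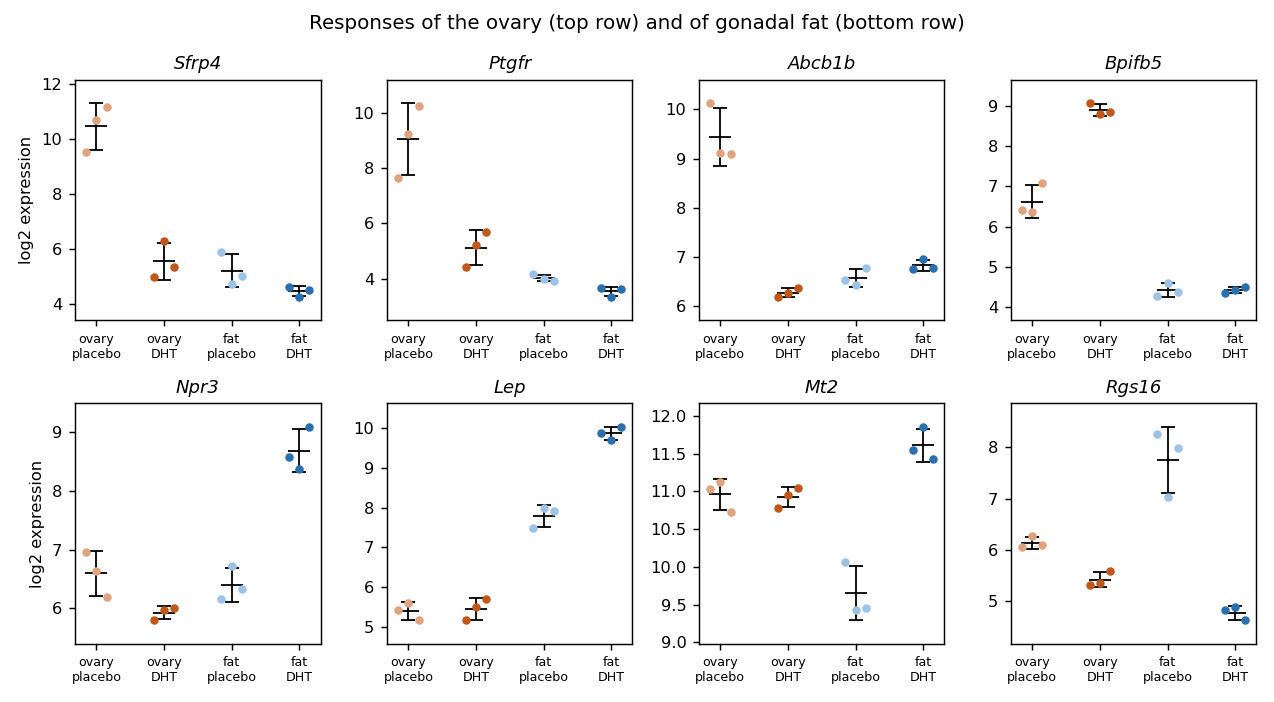
Log2 expression of 4 genes that responded in the ovaries (top row) and 4 that responded in gonadal fat (bottom row) in each of the 12 arrays (points), with the mean and SD of each group of 3 (bars). In each panel the arrays of the responding tissue are apart between treatments.

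The fat response that differed from the ovaries comprised 735 genes, 585 higher and 150 lower in DHT-treated fat. It held 1432 genes without fat DHT 3, 1184 without fat control 1, and between 345 (ovary control 3) and 459 (fat control 2) when any 1 of the ovary arrays other than control 1 or of the other 4 fat arrays was left out. Npr3, the clearance receptor of natriuretic peptides, had the largest rise among them. In the ovaries Npr3 stood at 5.79, 5.98 and 6.01 with DHT and at 6.96, 6.64 and 6.20 with placebo. In gonadal fat it stood at 8.58, 8.38 and 9.10 with DHT and at 6.16, 6.72 and 6.32 with placebo. The fat groups were over 1 unit apart in 1 direction and the ovary groups apart in the other. Npr3 rose by 2.29 ± 0.22 (SE) in fat (adjusted p = 1.69e-04), the ovary change of -0.67 was not called (adjusted p = 0.227), and the difference was 2.96 (adjusted p = 9.43e-04). Lep encodes leptin, the adipocyte hormone that signals fat stores to the brain. It lay at 9.87, 9.71 and 10.04 with DHT and 7.48, 8.0 and 7.91 without in fat, a 4.24-fold rise, and at 5.16, 5.49 and 5.69 and 5.41, 5.61 and 5.17 in the ovaries, where the arrays overlapped. The difference for Lep was 2.04 ± 0.24 (SE, adjusted p = 0.00164).

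The metallothionein genes Mt1 and Mt2, whose products bind zinc and which steroid hormones can induce, rose in fat. Mt2 lay at 11.55, 11.86 and 11.43 with DHT and 10.07, 9.43 and 9.45 without in fat, and at 10.78, 10.96 and 11.04 and 11.04, 11.12 and 10.73 in the ovaries. It rose by 1.96 in fat without overlap, with -0.04 in the overlapping ovary groups and a difference of 2.0 ± 0.25 (SE, adjusted p = 0.00186). Mt1 rose by 1.0 in fat (ovaries 0.12). Nnat (neuronatin), Tnfrsf12a (the receptor of the cytokine TWEAK), Tpmt and Lpgat1 rose in fat by 2.08, 1.66, 1.92 and 1.10, with -0.01, -0.88, 0.00 and -0.11 in the ovaries. Ebf2, a transcription factor of adipocyte precursors and brown fat, rose by 0.98 in fat (adjusted p = 1.31e-04), with 0.00 in the ovaries. The calls of these 7 genes held when any 1 array was left out, and that of Tpmt was lost with the covariate (adjusted p = 0.137).

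Other genes that rose in fat with a called difference included Angptl4, an inhibitor of lipoprotein lipase (0.96 in fat, -0.23 in the ovaries), Pnpla2, the first lipase of fat breakdown (0.45 and -0.44), Mgst3 (1.08 and 0.08), Gpx1 (0.42 and -0.31) and Asns (0.57 and -0.23). With the ovarian adipocyte marker level as a covariate the difference stayed called in Gpx1 but not in Angptl4, Pnpla2, Mgst3 or Asns (adjusted p = 0.122, 0.167, 0.114 and 0.254), and those of Mgst3 and Asns were also lost without the 2 ovary arrays high in oviduct markers (0.126 and 0.174). Pck1, which makes the glycerol backbone of stored fat from smaller precursors, lay at 9.13, 9.93 and 10.14 with DHT and 8.24, 8.83 and 7.93 without in fat. The fat groups did not overlap, and the difference of 1.39 ± 0.36 (SE, adjusted p = 0.0636) was not called without some single arrays (adjusted p up to 0.142, without fat DHT 2). The same held for Anxa1, Abcd2, Ppara, Cldn5, Clock and Pcna, which rose in fat by 1.12, 1.12, 0.76, 0.95, 0.42 and 0.36: without the 1 array that mattered most the adjusted p of their differences reached 0.149 (fat control 2), 0.168 (ovary DHT 2 or fat DHT 1), 0.169 (ovary control 3), 0.136 (fat control 3), 0.204 (ovary control 3) and 0.124 (ovary control 3). Of Pck1 and these 6 genes, Anxa1 alone stayed called with the covariate and without the 2 ovary arrays.

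Rgs16, a brake on G protein signalling, had the largest fall in fat. The ovary values of Rgs16 were 5.33, 5.37 and 5.59 with DHT and 6.06, 6.27 and 6.09 with placebo. Those in gonadal fat were 4.83, 4.89 and 4.63 with DHT and 8.25, 7.02 and 7.98 with placebo. Arrays were apart in both tissues, by more than 2 units in fat. Rgs16 fell 7.83-fold in fat (adjusted p = 9.02e-05), the ovary change of -0.72 was not called (adjusted p = 0.248), and the difference was -2.25 ± 0.33 (SE, adjusted p = 0.00586). Akr1c14, a hydroxysteroid dehydrogenase that inactivates DHT in rodents, lay at 3.39, 3.29 and 3.31 with DHT and 5.31, 4.31 and 4.66 without in fat, and at 9.40, 8.98 and 8.74 and 8.73, 8.63 and 8.92 in the ovaries. It fell in fat and the ovary arrays overlapped, with a difference of -1.71 ± 0.31 (SE, adjusted p = 0.0141). The values in DHT-treated fat lay near the medians of those arrays (3.30, 3.37 and 3.44), where low signal limits the size of a fall. Mlxipl encodes ChREBP, the carbohydrate-responsive activator of fat synthesis. It lay at 7.40, 7.59 and 7.32 with DHT and 8.66, 8.70 and 8.88 without in fat, and its difference was -1.02 ± 0.16 (SE, adjusted p = 0.00727).

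Other falls in fat depended on single arrays for the call of the difference. They were C1qtnf3 (a secreted relative of adiponectin), the glycogen-targeting subunit gene Ppp1r3b, Sorl1, the ubiquitin ligase gene Fbxo32, Igfbp3 and Igfbp5 (binding proteins of insulin-like growth factors), Col14a1, Ptgis (prostacyclin synthase) and Wt1. Their changes in fat were -1.89, -1.90, -1.56, -1.24, -1.28, -1.11, -1.18, -0.52 and -0.73, and those in the ovaries -0.13, -0.21, -0.04, 0.28, -0.04, -0.21, 0.04, 0.25 and -0.05. Without 1 array the adjusted p of the difference reached 0.124 for C1qtnf3, 0.11 for Sorl1, 0.186 for Fbxo32, 0.186 for Col14a1, 0.194 for Ptgis and 0.197 for Wt1 (ovary control 3 left out), 0.143 for Ppp1r3b and 0.143 for Igfbp5 (fat DHT 2) and 0.13 for Igfbp3 (ovary DHT 3 or fat control 3). The covariate ended the call in 8 of these 9 genes, all but Ptgis (adjusted p 0.11 to 0.285), and leaving out the 2 ovary arrays high in oviduct markers did so in all 9 (0.12 to 0.26). In 7 of the 9, all but Ppp1r3b and Sorl1, the highest of the 6 fat arrays was placebo-treated fat 1, where smooth muscle markers averaged 9.46. For Ppp1r3b and Sorl1 it was placebo-treated fat 3, where skeletal muscle markers averaged 7.26. Wt1 is also 1 of 8 mesothelial markers, whose mean was 5.47 to 6.07 in DHT-treated and 6.09 to 6.37 in placebo-treated fat, and the part of other cell types in these falls was not tested.

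Gene lists were described by counts and medians, beside all 18080 genes. There the difference was called higher in fat in 4.63% and lower in 1.51%. The median change was -0.01 in the ovaries, 0.00 in fat and 0.01 for the difference. A gene listed as higher in fat is one whose change under DHT, not its level, was higher in fat than in the ovaries. Of 14 genes of adipocyte identity, 7 had a called difference, each higher in fat: Adipoq, Cebpa, Lep, Lipe, Lpl, Pnpla2 and Retn. In this list 6 genes rose in fat (7.58% of all genes did) and 2, Lipe and Retn, fell in the ovaries (1.12% of all did). The medians were -0.29 in the ovaries and 0.38 in fat. Adipoq itself, which encodes adiponectin, passed in neither tissue (-0.81 in the ovaries, 0.35 in fat), and its difference of 1.16 ± 0.32 (SE, adjusted p = 0.0739) reached an adjusted p of 0.163 without ovary DHT 2. Among 16 genes of lipolysis and lipid droplets, 5 differed, all higher in fat: Lipe, Pnpla2, Abhd5, Plin4 and Plin5. Abhd5, the activator of the lipase Pnpla2, rose in fat by 0.31 with -0.28 in the ovaries. The 4 adipocyte markers whose mean was lower in the DHT-treated ovaries (Adipoq, Retn, Plin1 and Cidec) are members of the adipocyte identity list.

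Fatty acid and cholesterol synthesis showed another pattern. Of 16 genes of fatty acid synthesis, 9 fell in fat (2.9% of all genes did), among them Acly, Acaca, Elovl6 and Mlxipl, 2 rose in fat (Elovl1 and Fads3, against 7.58%), and 3 fell in the ovaries (Scd1, Thrsp and Fads3, against 1.12%). The medians were -0.65 in the ovaries and -0.76 in fat, and all 16 means were lower under DHT in the ovaries, against 9432 of all 18080. Acly, which makes cytosolic acetyl-CoA, fell by 1.46 in fat with an estimate of -0.82 in the ovaries, and Elovl6, which lengthens palmitate, fell by 2.09 with an estimate of -0.68, both without a called difference. The difference was called in 4 of the 16: higher in fat for Elovl1, Fads3 and Scd1 and lower for Mlxipl, against 4.63% and 1.51% of all genes. Of 17 genes of cholesterol synthesis, 4 fell in the ovaries and 0 in fat by limma (0 also at an unadjusted p under 0.05), and all 17 ovary means were lower under DHT (median -0.84, against -0.15 in fat). The 4 were Hmgcs1, Fdps, Dhcr7 and Mvk, with ovary changes of -1.45, -1.54, -1.32 and -0.41. No difference was called in this list by limma (8 had an unadjusted p under 0.05), and the median difference was 0.65. In Hsd17b7, which acts in both cholesterol and steroid synthesis, the difference was 2.37 ± 1.04 (SE, adjusted p = 0.235).

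Among 16 androgen and glucocorticoid responsive genes, 9 rose in fat (7.58% of all genes did), and in the ovaries 1 rose (Zbtb16, against 0.835%) and 2 fell (Fkbp5 and Sgk1, against 1.12%). The difference was called in 6, all higher in fat (4.63% of all genes were): Fkbp5, Mt1, Mt2, Angptl4, Klf9 and Sgk1. Sgk1, a kinase that steroid hormones induce, had estimates of -1.59 in the ovaries (adjusted p = 0.00829) and 0.28 in fat (adjusted p = 0.54). Tsc22d3, another hormone-induced gene, rose in fat by 0.40 against 0.10 in the ovaries, with no called difference (adjusted p = 0.335). Of 11 adipokine genes, the difference was called in Lep, Retn and Adipoq, each higher in fat, against 4.63% of all genes. Of 19 genes of glutathione metabolism, 5 rose and 1 fell in fat, against 7.58% and 2.9% of all genes. In the ovaries 1 rose and 1 fell, against 0.835% and 1.12%. Gpx1, Mgst2 and Mgst3 had a called difference, each positive, against 4.63% of all genes, and Mgst2 fell in the ovaries.

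Of 19 collagen genes, 3 differed, against 6.14% of all genes. The difference (fat effect minus ovary effect) was positive for Col6a6 and negative for Col14a1 and Col4a3. Of 22 genes of matrix remodelling, Tnc, Timp1 and Sparc had a called difference, each positive, against 4.63% of all genes. The call of Sparc was lost in 9 of 12 fits without 1 array (adjusted p up to 0.155, without ovary control 3) and with the covariate (0.299), and that of Timp1 with the covariate (0.136). In the same list 2 rose in fat and 4 fell in fat (Lum, Mmp2, Mmp11 and Mmp14) without a called difference, against 7.58% and 2.9% of all genes. Lum, the proteoglycan lumican, fell by 2.03 in fat against an estimate of -0.95 in the ovaries (difference -1.09 ± 0.52 SE, adjusted p = 0.277). Among 14 inflammation genes Vcam1 and Cxcl1 had a called difference, each negative, against 1.51% of all genes. In that list 2 genes rose in the ovaries and 2 fell in fat, against 0.835% and 2.9% of all genes. Among 17 prostaglandin genes, the difference was positive for Ptgfr, which fell in the ovaries, and negative for Ptgis and Ptgr1. Of 9 steroidogenesis genes, the difference was positive for Star and Fdx1, which fell in the ovaries, and negative for Akr1c14, which fell in fat. Over all genes the difference was called positive in 4.63% and negative in 1.51%. The calls of Ptgis and Fdx1 were each lost in 9 of 12 fits without 1 array. Inhbb, which encodes an activin and inhibin subunit of granulosa cells, was called in neither tissue (-0.62 and 0.51) but differed by 1.13 ± 0.27 (SE, adjusted p = 0.0484, up to 0.106 without ovary DHT 3 or ovary control 2).

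**Figure D5:**
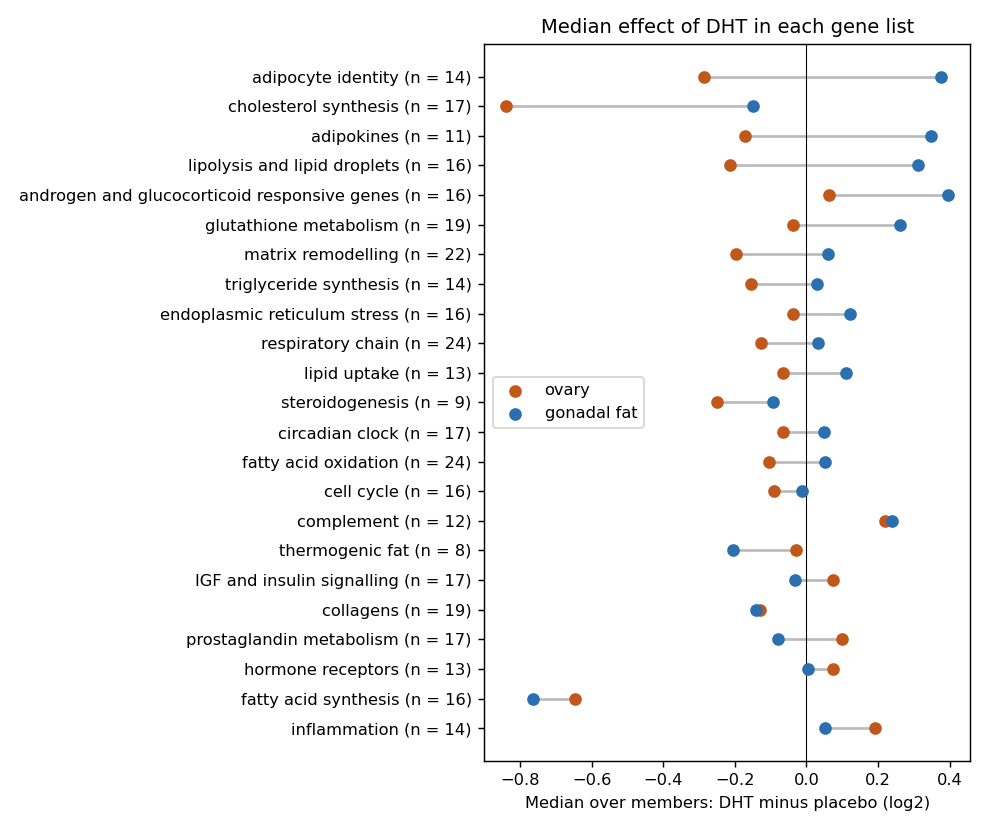
Median change under DHT over the tested members of 23 gene lists in the ovaries and in gonadal fat (log2, horizontal axis), with the number of members beside each name and lists ordered by their median difference. Adipocyte identity had medians of -0.29 and 0.38, cholesterol synthesis -0.84 and -0.15, and complement 0.22 and 0.24.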

How the data were processed

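Affymetrix mouse transcriptome arrays were used for total RNA of 12 samples. The authors deposited 1 log2 value per transcript cluster and array. The submitters' processing notes name MAS5, while the normalization and summary steps are not given in the sources used here, so a scaling that differs between tissues could move the difference of the effects. The values were neither logged nor normalized again. There is no read depth for arrays, and 3 arrays per group limit the precision. The limma p-values weigh an effect against 1 variance per gene, pooled over the 4 groups and drawn towards a value common to all genes.

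Of 65929 clusters, 30638 carried 1 gene symbol, 2176 several and 33115 none in the platform annotation, and the latter 2 kinds were left out. No symbol needed an update by RefSeq (GRCm38.p6). Each gene was taken from its cluster of highest mean. Displaced fat values were returned to their names by an order of names with "_" ahead of digits. Genes above the array median in at least 3 of 6 arrays of each tissue entered 1 fit with 4 group means in R 4.3.3 with limma 3.58.1 (lmFit, eBayes), and p-values were adjusted by Benjamini and Hochberg over the 18080 genes. In data simulated for the difference of the effects over 18080 genes, 86% of 2-fold and 98% of 4-fold differences were called, and 9.8% of 204 calls were false. The simulated noise was independent, with 1 SD per gene for both tissues, and effects were placed in DHT-treated fat alone. It lacked the unequal spread of the tissues, the correlation of same-number arrays and the arrays that stood apart, so these rates need not hold for the real calls. Plots used Python 3.11.15.

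Ovary and fat arrays with the same number deviated together. Correlations of residuals were 0.139, 0.156 and 0.192 with DHT and 0.114, 0.110 and 0.128 without, each the highest for its own number. The labels do not say which arrays share a mouse. These correlations cannot tell a shared mouse from another feature that arrays of the same number had in common. A block that treats such arrays as from the same mouse therefore rests on an assumption. The fit without the block is the one reported, and the blocked fits are alternatives.

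Members, lists and rules were chosen with earlier results of these data known. The genes named were up to 10 opposite responses by p, up to 6 per direction of each 1-tissue class by size of the difference, up to 6 shared responses per direction, Col6a5, and genes named by the study or up to 3 per list with a called difference. Other genes were named after their values were seen. The alternatives were other normalizations, filters, cluster rules, variance models, replicate blocks, thresholds, row orders, covariates and the removal of arrays.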

Additional observations from a re-analysis of the deposited data

Results flagged for a closer look

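What singled out the results below was a test of the difference itself (the fat effect less the ovary effect), called by limma in 1110 genes. Given here are the 75 genes with a called difference that the naming rule selected. The log2 difference stands in brackets after each gene, and a positive value is a change that was higher in fat.

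Among the opposite responses, the difference was positive in Rgcc (2.18), Fkbp5 (2.07), Fads3 (2.06), Cobll1 (1.44), Usp53 (1.06), Plcb4 (1.0) and Lipe (0.73). It was negative in Vcam1 (-3.56), Kit (-2.85), Runx1t1 (-1.08) and Coq8a (-1.08).

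Genes called in the ovaries had positive differences where they fell in the ovaries: Sfrp4 (4.17), Ptgfr (3.44), Abcb1b (3.41), Plin4 (2.93), Tnc (2.56), Tmem178 (2.22), Star (2.04), Ephx2 (1.97), Retn (1.69), Scd1 (1.69), Scarb1 (1.43), Gm2a (1.40), Fdx1 (1.20), Mgst2 (1.06), Timp1 (0.92) and Ndufa4 (0.68). Those that rose in the ovaries had negative ones: Fabp3-ps1 (-2.55), Fabp3 (-2.48), Bpifb5 (-2.29), Omd (-1.46), Ptgr1 (-1.26), Ccn2 (-1.21), Cxcl1 (-0.94), Vwf (-0.77) and Col4a3 (-0.47).

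Genes called in fat had positive differences where they rose in fat: Npr3 (2.96), Tnfrsf12a (2.55), Nnat (2.09), Lep (2.04), Mt2 (2.0), Tpmt (1.92), Anxa1 (1.53), Pck1 (1.39), Lpgat1 (1.21), Angptl4 (1.18), Mgst3 (1.01), Ebf2 (0.98), Abcd2 (0.93), Pnpla2 (0.89), Mt1 (0.88), Asns (0.81), Gpx1 (0.73), Cldn5 (0.71), Ppara (0.58), Col6a6 (0.54), Pcna (0.48) and Clock (0.45). Those that fell in fat had negative ones: Rgs16 (-2.25), C1qtnf3 (-1.76), Akr1c14 (-1.71), Ppp1r3b (-1.69), Fbxo32 (-1.53), Sorl1 (-1.52), Igfbp3 (-1.25), Col14a1 (-1.22), Mlxipl (-1.02), Igfbp5 (-0.90), Ptgis (-0.77) and Wt1 (-0.68).

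Called for the difference but in neither tissue were Inhbb (1.13), Cox7a2 (0.41), Cpt1a (0.99), Sparc (0.48) and Adipoq (1.16). Of these 75 differences, 48 kept their call when any 1 of the 12 arrays was left out and 27 lost it at least once. The call was kept in all 11 opposite responses, 19 of 25 ovary responses, 18 of 34 fat responses and 0 of the 5 called in neither tissue.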

How the results depend on the processing

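The alternatives were compared by the number of genes called. For the difference of the effects (1110 genes), the count was 531 at a threshold of 0.05, 163 with a 2-fold difference required at 0.1, 668 over clusters that were not displaced, 457 with the ovarian adipocyte marker level as a covariate, 327 without the 2 ovary arrays high in oviduct markers, and 524 to 2037 without any 1 array. Treating ovary and fat arrays of the same number as 1 mouse, as a random replicate block, gave 2237 differences and 1126 fat responses that differ; as a fixed block, 1144 and 690. With the replicate number as a block across all 4 groups the count was 930. The random block moved none of the other 5 counts by over 1.5 times, and the fixed block, which gives no test within a tissue, gave 173 ovary responses that differ, 153 of them among the original 173.

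Ovary calls (354) were 205 at 0.05, 82 with 2-fold, 772 with array weights, 225 in a fit of the ovary alone, 235 undisplaced, 192 with the covariate, 126 without the 2 arrays and 171 to 422 without any 1. Fat calls (1895) were 1090 at 0.05, 105 with 2-fold, 946 with array weights, 728 in a fit of fat alone, 1159 undisplaced and 951 to 2772 without any 1. Opposite responses (26) were 12 at 0.05, 2 with 2-fold, 40 with array weights, 10 in separate fits, 11 without the 2 arrays and 15 to 38 without any 1. Shared responses (40) were 26 with median centring, 21 at 0.05, 3 with 2-fold, 23 in separate fits, 13 with the covariate, 18 without the 2 arrays and 19 to 43 without any 1. Ovary responses that differ (173) were 98 at 0.05, 48 with 2-fold, 112 in separate fits, 112 undisplaced, 76 without the 2 arrays and 88 to 240 without any 1. Fat responses that differ (735) were 342 at 0.05, 59 with 2-fold, 434 in separate fits, 443 undisplaced, 248 with the covariate, 208 without the 2 arrays and 345 to 1432 without any 1.

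A stricter threshold lowers a count of calls by construction, but fewer genes need not. Above the 75th percentile 10451 genes were tested and the difference was called in 1380. Without a filter 30176 genes were tested and it was called in 966. For these and the other alternatives, the removal of arrays included, the cause was not tested. Over 2536 comparisons of a named gene with an alternative, the sign of a called difference turned in 0, the call was kept or stayed absent in 2187, was lost in 337 and was gained in 12. The covariate ended the call in 30 of 75 named genes and the removal of the 2 ovary arrays in 29. The covariate was itself lower with DHT in the ovaries, so a lost call does not tell adipocyte content from treatment. Low signal limits the genes left out by the filter, and no array has a depth.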

Other observations

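Lists with few called differences hold further genes of interest. Among 24 subunits of the respiratory chain, 2 (Ndufa4 and Cox7a2) had a called difference, both higher in fat, against 4.63% of all genes. All 24 means were lower in the DHT-treated ovaries (median -0.13), where Ndufa4 fell (-0.43, adjusted p = 0.0614), and 15 were higher in fat (median 0.03), where limma called 0 (3 at an unadjusted p under 0.05). Centring each array on its median moved the median of all genes to -0.04 in the ovaries and to 0.08 in fat, so medians of this size move with the scaling. Of 13 hormone receptor genes limma called no difference (3 at an unadjusted p under 0.05). Lepr, the leptin receptor, fell in fat (-1.11, adjusted p = 0.0247), with -0.06 in the ovaries and a difference of -1.05 ± 0.36 (SE, adjusted p = 0.136), and Ghr, the growth hormone receptor, rose in fat (0.48, adjusted p = 0.0367).

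Of 8 thermogenic genes, Ebf2 rose in fat and differed, against 7.58% and 6.14% of all genes. The other 7 had lower means in DHT-treated fat and limma called none of them there (1 at an unadjusted p under 0.05). Among 17 clock genes Clock differed, against 6.14% of all genes. Clock and Tef rose in fat (0.42 and 0.43) and Nfil3 fell (-0.49, adjusted p = 0.0106), against 7.58% and 2.9% of all genes. Hlf was called in the ovaries (0.36, adjusted p = 0.0979), where 0.835% of all genes were called higher. Of 16 genes of endoplasmic reticulum stress, Asns, Atf6 and Dnajc3 rose in fat by 0.57, 0.29 and 0.40, against 7.58% of all genes. Asns alone differed, against 6.14% of all genes.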
